A study of Mus musculus with 4 samples.

Results

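The cells described here are the Mcpt8-positive basophils of 4T1 tumours. They were chosen by transcripts: a barcode was taken where it held at least 300 genes and at most 15% mitochondrial counts, at least 1 unique molecular identifier (UMI, 1 counted transcript molecule) of Mcpt8, at least 1 of Ms4a2, Cd200r3 or Gata2 together, and none of the mast cell protease genes Cma1, Mcpt4, Tpsb2 and Tpsab1. The rule found 79 cells among 32133 kept cells (0.246%, exact 95% binomial interval 0.195 to 0.306%), from 33064 barcodes in all. Intervals here cover counting error only. Since these genes chose the cells, their levels are a description, and comparisons of the cells with other cells carry no test.

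The tumours were grown from 1000000 4T1 cells, a mouse mammary carcinoma line, in the right flank of female BALB/c mice of 6 to 8 weeks. Of the 4 samples, 2 were labelled PBS, 1 was labelled TIOs with NIR light, and 1 was left unassigned because its title and its protocol named different treatments. TIOs, a T cell-inspired oncolytic system, are liquid nitrogen-treated macrophages that carry upconverting nanoparticles with the photosensitizer chlorin e6, azobenzene and the GPX4 inhibitor RSL3. The protocols of all 4 samples gave an injection on day 7, exposure to 980 nm light (1.0 W per square centimetre, 5 min each) daily from day 8 to day 10, and tumour collection on day 13, followed by a sort for CD45, the leucocyte surface protein. The number of mice behind a library is not stated in the sources used here. The counts came as a pooled matrix whose barcodes carried 4 suffixes, and no source used here ties a suffix to a sample. The suffixes are called libraries 1 to 4 below, and since their treatments are unknown no treatment effect was estimated. Libraries 1 to 4 held 108646352, 81369540, 69255999 and 96493208 UMIs.

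Basophils are rare blood granulocytes that store histamine and carry the high-affinity IgE receptor FcεRI. They leave the bone marrow mature, enter inflamed tissue, and answer IgE, IL-3 and the alarmins IL-33 and IL-18 with histamine, leukotrienes and the type 2 cytokines IL-4 and IL-13. Mast cells share much of this equipment but mature in tissue, depend on the receptor Kit and store other proteases. In the mouse, the protease encoded by Mcpt8 is the usual mark that sets basophils apart from mast cells, and Gata2 encodes a transcription factor that both lineages need.

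The promoters of 3 genes are shown, because Mcpt8 defines the cells, Cd200r3 was the rule's most often shared surface gene and Il13 is a type 2 cytokine gene that was high in them. Each is the 250 bases before the RefSeq start site (GRCm38.p6), written along the gene's own strand. Capitals mark GATAA, the core motif of GATA factors, or its reverse complement TTATC.
Mcpt8, chr14:56085198-56085447, minus strand: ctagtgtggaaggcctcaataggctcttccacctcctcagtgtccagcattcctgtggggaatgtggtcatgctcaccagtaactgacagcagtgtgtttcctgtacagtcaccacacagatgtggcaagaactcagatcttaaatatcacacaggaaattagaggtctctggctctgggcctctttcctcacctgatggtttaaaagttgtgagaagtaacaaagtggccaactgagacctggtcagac
Cd200r3, chr16:44943428-44943677, plus strand: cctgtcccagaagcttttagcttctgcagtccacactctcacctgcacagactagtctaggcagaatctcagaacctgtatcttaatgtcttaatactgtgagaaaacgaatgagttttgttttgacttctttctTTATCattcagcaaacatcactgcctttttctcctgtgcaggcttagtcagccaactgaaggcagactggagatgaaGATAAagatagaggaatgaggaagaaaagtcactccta
Il13, chr11:53634703-53634952, minus strand: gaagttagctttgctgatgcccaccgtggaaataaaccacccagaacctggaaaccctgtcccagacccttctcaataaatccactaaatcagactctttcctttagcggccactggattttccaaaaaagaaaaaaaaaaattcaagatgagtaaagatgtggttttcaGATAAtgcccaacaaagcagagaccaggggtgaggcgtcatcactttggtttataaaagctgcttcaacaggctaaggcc
The Cd200r3 window held the motif 115 and 38 bases before the start, the Il13 window held it 80 bases before, and the Mcpt8 window had no match. The windows of Il4, another type 2 cytokine gene that was high in the cells, are not shown and had no match. Of 18 promoters found for 15 of the 20 genes that were higher in all 79 cells (below), 7 held the motif on either strand, against 22.6% of 32851 promoters of the same length. These matches describe letters and not bound sites.

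The 79 cells did not form a uniform set. By their fixed marker lists, 30 of them carried at least 2 marker genes, at 3 UMIs or more each, of neutrophils, macrophages, T cells, tumour epithelium or fibroblasts. These 30 cells held 88.4% of the UMIs of the 79 and 49.8% of the Mcpt8 UMIs. Their depth reached 93729 UMIs, with a median of 21225.5. The other 49 cells had a median of 2466 UMIs and at most 4811, and held 11.6% of the UMIs and 50.2% of the Mcpt8 UMIs. The 14 deepest cells, with 31057 UMIs or more, alone held 74.3% of all UMIs and 5.72% of the Mcpt8 UMIs. Hdc, the histamine-making enzyme gene that the rule did not use, was found in 6 of these 14 cells and Cyp11a1 in 0, whereas 47 of the 49 cells held Hdc and 45 held Cyp11a1. The 15 marker-bearing cells with Cyp11a1 were all shallower than these. Whether the 30 cells were doublets, or cells of another type that took up free RNA, was not tested.

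**Figure D1:**
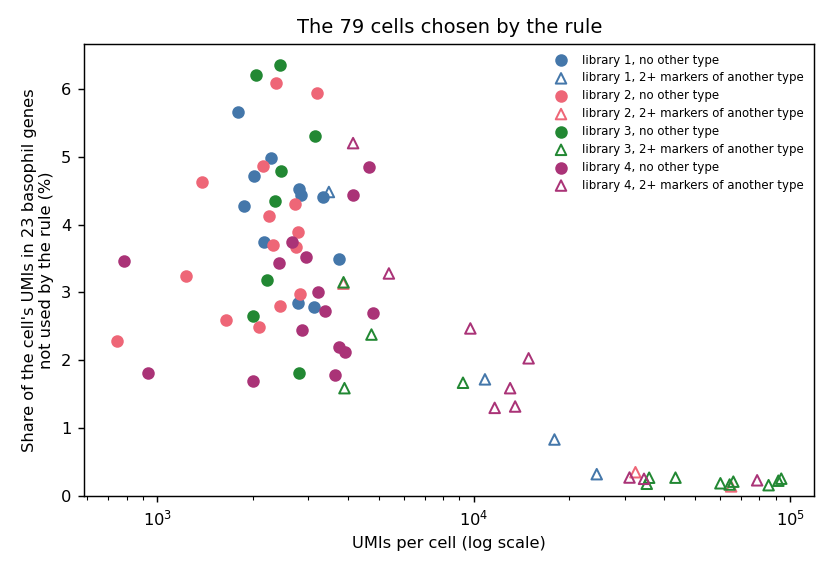
Each point is 1 of the 79 cells, placed by its UMIs (log scale) and by the share of them (%) that fell on 23 basophil genes the rule did not use. Filled circles are the 49 cells without markers of another cell type and stay at or below 4811 UMIs, open triangles are the 30 with such markers, and colours give the library.

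The plot of depth against basophil genes shows both sets. The 23 basophil genes not in the rule took a median of 3.67% of the UMIs of the 49 cells, 0.593% in the 30, and 0.230% in the 14 deepest. A sum over all 79 cells is therefore mostly a sum over the deepest barcodes. Values below are for the 49 cells, called tumour basophils for short, with the counts for all 79 given for the same lists. Taking the 49 for the gene comparisons was chosen after the data had been seen. Low counts of the marker lists used to set cells aside follow from that choice. How far lower calls of other genes also follow from it was not tested. The limit of 3 UMIs per marker is reached more easily in deep cells, so it also favoured shallow cells among the 49.

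The tumour basophils came from all libraries, with 11, 15, 8 and 15 cells in libraries 1 to 4, or 0.140%, 0.174%, 0.118% and 0.169% of kept cells. Their intervals overlapped, from 0.0509% at the lowest to 0.287% at the highest. The set of 79 had 15, 18, 21 and 25 cells. Library 3 had the most cells with other markers, 13 of its 21.

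At the edge of the rule, 19 of the 79 cells held just 1 Mcpt8 UMI, of which 10 were tumour basophils. Among these 10, Hdc was present in 8 and Cyp11a1 in 9. In all, 476 kept cells held an Mcpt8 UMI. Of them, 391 had none of Ms4a2, Cd200r3 and Gata2, with 300 in library 1, a median depth of 25777 UMIs, Cyp11a1 in 2 and Epcam, a tumour epithelial gene, in 280. Another 6 were left out for a mast cell protease. Just outside, 73 cells without Mcpt8 held at least 2 UMIs of the other rule genes and no mast cell protease. In this last group, 7 had no markers of another type, and Cyp11a1 was found in 6 of those 7. Of 931 barcodes removed by the cell filter, none met the rule. In the whole matrix 101 barcode sequences occurred in more than 1 library, and 1 of the 79 cells carried such a sequence.

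Mcpt8 reached 2552 CPM (the summed UMIs scaled to a total of 1000000) in the tumour basophils (325 UMIs, exact Poisson interval 2282 to 2845). By library it was 3784, 3009, 2617 and 1429 CPM. Cd200r3, an immunoglobulin-family receptor gene, was present in 42 of the 49 cells at 966 CPM, and Gata2 in 41 at 911 CPM. Ms4a2, the FcεRI beta chain gene, was thinner, in 20 cells at 212 CPM. Of these 3 genes, 16 cells held all, 22 held 2 and 11 held 1.

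The identity of the cells was then compared with marker genes outside the rule. Against all other kept cells of the same library, a gene was called higher where the log2 difference of CPM + 10 was at least 2 on average over libraries with at least 10 basophils, at least 1 in each of them, and at least 10% of the basophils held a UMI. Libraries 1, 2 and 4 entered for the 49 cells. Of 2957 genes detected in at least 10% of the tumour basophils, 249 were higher (8.42%), and of 7789 detected in other cells, 820 were lower (10.5%). With all 79 cells and all 4 libraries, 20 were higher (0.239%) and 34 lower (0.437%). All 20 were among the 249. Beside the rule genes Mcpt8, Cd200r3 and Gata2 they included Cyp11a1, Gm20186, Il4, Sytl3, Rgs1, Ifitm1, Hs3st1, Csf2rb2, Il13, Grm6, Gm43123, Atp1b1, Dnase2b, Mboat1, Tec and Klf5. As a check chosen after the data had been seen, the cell of the set with the most UMIs of a gene was left out in 1 library at a time. Of the 20 genes 9 were still called each time (Mcpt8, Cyp11a1, Cd200r3, Gata2, Sytl3, Hs3st1, Csf2rb2, Atp1b1 and Mboat1), and of the 249 genes 157 were. A call that was lost in this way is said below to rest on 1 cell.

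Of the 23 basophil genes that the rule did not use, 17 were higher in the tumour basophils, with a median log2 difference of 3.75. The calls of Cpa3, Itga2 and Il1rl1 rested on 1 cell in a library. Over all 79 cells 4 were higher, with a median of 1.78. Here and below, a list's median is over all its genes, and the median over all genes tested in either direction was -0.98 for the 49 cells and -0.07 for the 79. The counts of each list stand beside shares of 8.42% higher and 10.5% lower over all genes tested for the 49 cells. Cyp11a1, the steroid-making side-chain cleavage enzyme, stood at 2257, 1672, 2156 and 1516 CPM in libraries 1 to 4, against at most 1.30 CPM in the other cells of any library, and no library of either set overlapped. Ifitm1, an interferon-induced membrane protein gene, was present in all 49 cells at 14494 CPM, against 372 CPM in other cells. Against neutrophils Ifitm1 was not called (below). Grm6, a metabotropic glutamate receptor gene, was in 26 cells at 298 CPM, against 0.0594 CPM. The 6 genes not called included Fcer1g, Cd63 and Il3ra, which were detected at 1924, 1350 and 94.2 CPM, against 1127, 1137 and 27.3 CPM in other cells. Prss34 and Ptgdr2, genes of a basophil protease and a prostaglandin D2 receptor, were at 0 in the 49 cells. A count of 0 here allows up to 23.6 CPM, the worth of 3 UMIs. Gata1, the last of the 6, held 1 UMI. All 44 Prss34 UMIs of the 79 cells lay in a library 4 cell with 14901 UMIs that also held 195 Mcpt8, 40 Cpa3 and 10 Fcer1a UMIs and carried markers of neutrophils, macrophages and fibroblasts.

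**Figure D2:**
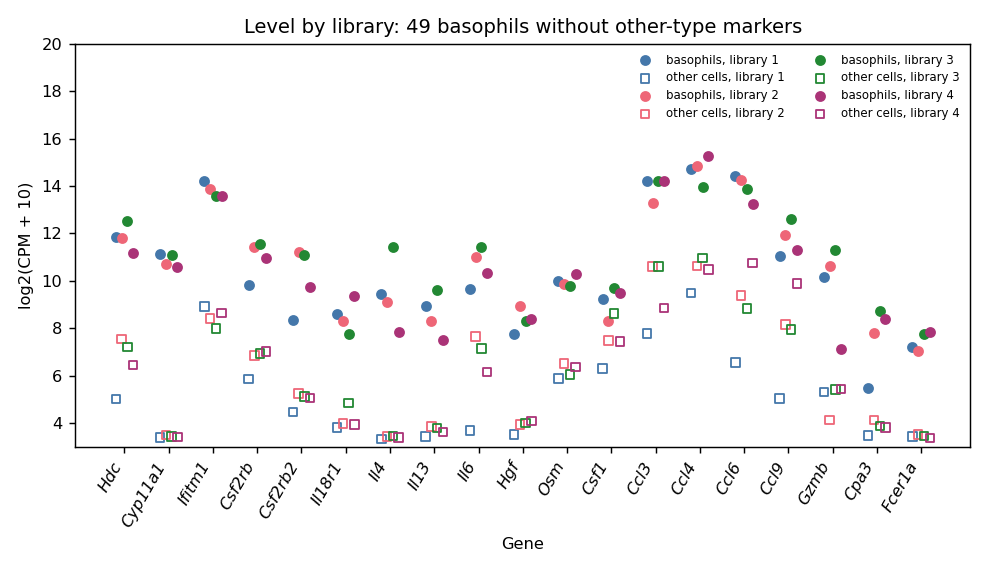
Level, as log2(CPM + 10), of 19 genes in the 49 basophils (circles) and in all other kept cells (squares) of each library, coloured by library. Cyp11a1, Il4 and Fcer1a lie near the floor in the other cells of every library, and Gzmb and Il4 spread the most between libraries of basophils.

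For the granule and histamine genes, 7 of 14 were higher in the tumour basophils, of which Mcpt8 was chosen by the rule and 6 were not, and 1, the lysosomal gene Lamp1, was lower. The median log2 difference was 2.26. With all 79 cells, no gene of this list but Mcpt8 was called. Hdc reached 3494 CPM (3177 to 3834) against 94.6 CPM in other cells, and was highest in library 3 at 5902 CPM and lowest in library 4 at 2317 CPM. Srgn, the core protein of granule proteoglycan, stood at 11377 CPM. Slc18a2, the vesicle transporter that loads histamine, was in 11 cells at 126 CPM and at 0 in library 3. Serpinb1a, a protease inhibitor gene, was at 377 CPM. Cpa3, carboxypeptidase A3, was in 17 cells at 243 CPM, ranging from 34.7 CPM in library 1, where it was 1 UMI in 1 cell, to 411 CPM in library 3.

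Gzmb, the granzyme B gene best known from cytotoxic lymphocytes, was also called higher. It was found in 23 of the 49 cells, at 1146, 1550, 2515 and 130 CPM in libraries 1 to 4, against 7.43 to 32.9 CPM in other cells. Library 4 stood apart from the others, and there the call rested on 1 cell with 4 UMIs. At an equal depth of 1000 UMIs per cell, drawn from cells with medians of 2466 UMIs (tumour basophils), 4987 (T cells) and 1967 (neutrophils), Gzmb was seen in 43.5% of 46 tumour basophils (28.9 to 58.9%), in 17.7% of 991 T cells (cells with Cd3e and Cd3d, taken with or without markers of other types) and in 0.185% of 2161 neutrophils. Shallower cells were left out, 3 basophils, 4 T cells and 52 neutrophils, and without thinning the shares were 46.9%, 32.7% and 0.497%. In the set of 79, of which 76 were deep enough, the thinned share was 31.6%. In GRCm38, Gzmb (56258838 to 56262260) and Mcpt8 (56082166 to 56085273) lie in a protease gene cluster on chromosome 14, where related genes could share reads.

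Among FcεRI signalling genes, 5 of 15 were higher in the tumour basophils (Fcer1a, Ms4a2, Lat, Lat2 and Gab2), 4 of them not rule genes, and 0 were lower, with a median of 1.00. With all 79 cells none was called either way, with a median of -0.10. Fcer1a, the IgE-binding alpha chain, was at 139, 122, 205 and 217 CPM in libraries 1 to 4 and was present in 17 cells. Other cells had 0.789 CPM. The call of Lat rested on 1 cell in library 4. Lat2, an adaptor protein gene, was in 37 cells at 714 CPM. Fcer1a and Ms4a2 were both seen in 8 cells, each alone in 9 and 12, and neither in 20. Plcg1 and Grap2, encoding a phospholipase and an adaptor, were at 0.

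In the lipid mediator list, 3 of 15 were higher and 1 was lower, of 6 and 8 tested in these directions. With all 79 cells none was called either way, with a median of -0.12. Alox5ap, the partner of 5-lipoxygenase, was in 47 cells at 2183 CPM, and Alox5 itself in 20 cells at 259 CPM against 5.19 CPM in other cells. Ptger3, a prostaglandin E2 receptor gene, was at 78.5 CPM, and its call rested on 1 cell in library 2. Ltc4s, which makes leukotriene C4, and Hpgds, which makes prostaglandin D2, were both at 0. The Alox15 UMIs, 14 in 8 cells, lay only in libraries 3 and 4. The median of this list in the 49 cells was -0.13, against -0.98 over all genes tested.

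Of the 20 cytokine genes, 5 were higher in the tumour basophils (Il4, Il13, Il6, Osm and Hgf) and 2 were lower (Il1a and Vegfa), with a median of 0.69. In all 79 cells Il4 and Il13 were called higher, and each call rested on 1 cell. Il4 was found in 21 of 49 cells (42.9%, 28.8 to 57.8%), at 694, 547, 2720 and 217 CPM in libraries 1 to 4. Library 3 was the highest, but there a single cell held 52 of the 101 Il4 UMIs. Without that cell, the level over the rest was 392 CPM in place of 793 CPM. Most positive cells held few molecules, with a median of 1 UMI. Il13 was in 14 cells, at 486, 304, 770 and 173 CPM, and 3 cells held 55.3% of its UMIs. In library 1 all 14 UMIs lay in 1 cell, and without it Il13 was not called higher in the tumour basophils or in all 79 cells. Other cells had 0.464 CPM of Il4 and 2.53 CPM of Il13. Both genes were found in 7 cells, Il4 alone in 14, Il13 alone in 7 and neither in 21. Il4 and Il13 are neighbours on chromosome 11. At 1000 UMIs per cell, Il4 was seen in 23.9% of tumour basophils, 1.11% of T cells and 0 of 2161 neutrophils, which allows a share of up to 0.139%. Without thinning, 5.43% of T cells held Il4.

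Il6, a pleiotropic inflammatory cytokine gene, was the most widely shared of the 5. It was present in 39 cells, at 798, 2067, 2771 and 1278 CPM in libraries 1 to 4, against 2.85, 191, 131 and 61.5 CPM in the other cells of those libraries. Every library was higher in basophils, and 3 cells held 23.5% of the UMIs. Osm, the oncostatin M gene, was in 33 cells at 1052 CPM, and its level varied little, from 872 to 1256 CPM over libraries. Hgf, hepatocyte growth factor, was in 28 cells at 338 CPM against 4.69 CPM in other cells. Csf1, which supports macrophages, reached 597 CPM against 178 CPM, with log2 differences of 2.93, 0.82 and 2.07 in libraries 1, 2 and 4, and was not called. Il1b, at 3447 CPM, ranged from 238 CPM in library 4 to 6723 CPM in library 3 and was not called either. Areg, an epidermal growth factor family gene, was in 8 cells and absent from those of library 4. Il5, Il9, Il3, Il10, Ifng and Tnfsf13b were at 0.

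Chemokine messages were the most abundant of the cytokine and chemokine genes listed. Ccl3, Ccl4, Ccl6 and Ccl9, 4 of the 15 genes on the list, were higher in the tumour basophils, and Ccl2, Ccl5, Ccl24, Cxcl1 and Cxcl10 were lower, with a median over the list of -0.38. Taking all 79 cells, none was called higher, and Ccl5 and Cxcl3 were lower. Ccl4 made up 30519 CPM (29567 to 31493) and was in 48 of 49 cells. By library it was 27010, 29666, 16166 and 39371 CPM, against 710 to 1989 CPM in other cells. Ccl3 was at 16700 CPM and was found in 47 cells, all of which also held Ccl4. Both encode macrophage inflammatory proteins. Ccl6 and Ccl9 were in every tumour basophil, at 15899 and 3345 CPM. The differences for these 2 were smallest in library 4, at 2.52 and 1.41 on the log2 scale, where other cells held 1704 and 937 CPM. The 4 genes lie on chromosome 11 between 83572919 and 83664683 (GRCm38), and Ccl6 and Ccl9 are close relatives whose reads could be split. Cxcl2, a neutrophil attractant, was uneven, at 2847, 36991, 17141 and 6778 CPM, and was not called. Ccl1, Ccl17 and Ccl22 were at 0.

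**Figure D3:**
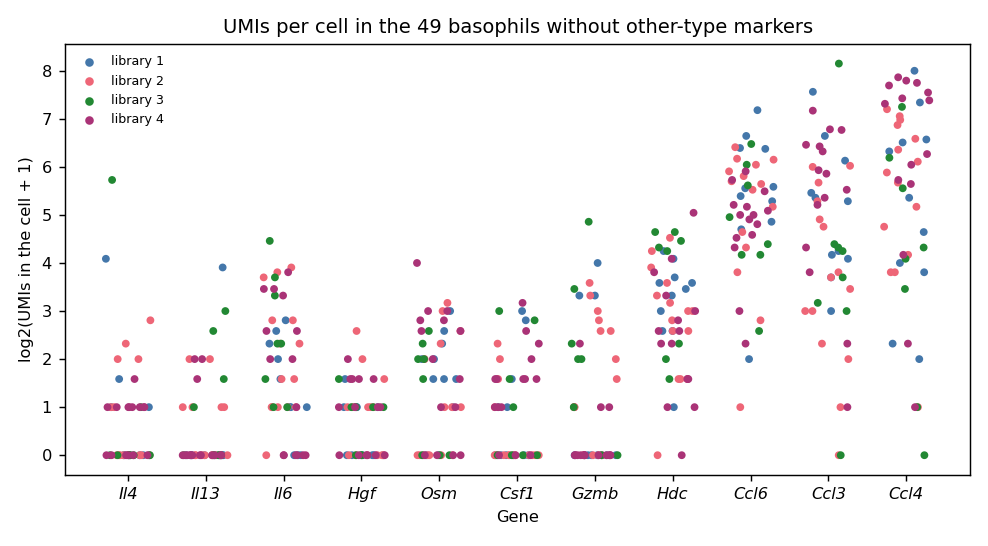
UMIs of each secreted or granule gene, as log2(UMIs + 1), in each of the 49 basophils, coloured by library. Ccl6, Ccl3 and Ccl4 are spread over nearly all cells, while a single library 3 cell with 52 UMIs stands above the others for Il4.

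Of the 20 cytokine receptor genes, Csf2rb, Csf2rb2, Il1rl1, Il18r1, Il18rap and Il7r were higher and Il13ra1, Tgfbr2, Csf1r and Csf3r were lower, with a median of 0.22. In the set of 79 Csf2rb2 alone was called. Csf2rb encodes the common beta chain used by IL-3, IL-5 and GM-CSF, and Csf2rb2 the mouse beta chain specific to IL-3. Csf2rb was in 43 cells at 2104 CPM and Csf2rb2 in 34 cells at 1319 CPM. Csf2rb2 was lowest in library 1 at 312 CPM and highest in library 2 at 2371 CPM. They are adjacent relatives on chromosome 15, so that reads could be shared between them. The calls of Il1rl1 and Il7r rested on 1 cell in libraries 4 and 1. Il3ra, the IL-3 receptor alpha chain, was at 94.2 CPM in 12 cells. The IL-18 receptor chains Il18r1 and Il18rap were each in 26 cells, at 432 and 393 CPM, and both in 12. Il1rl1, the IL-33 receptor, was in 23 cells at 275 CPM. Il5ra, Il13ra1 and Kit were at 0.

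For adhesion molecules, 5 of 14 were higher (Itga2, Itgb7, Itga2b, Selplg and Cd9), 0 were lower and the median was 1.76. For all 79 cells, none was called and the median was 0.26. Cd9, a tetraspanin gene, was in 46 cells at 2136 CPM. Itgb7, an integrin chain used in mucosal homing, was in 34 cells at 377 CPM against 24.0 CPM. Itga2, the collagen-binding chain known as CD49b and used to stain basophils, was in 19 cells at 196 CPM. The calls of Itga2 and Itga2b rested on 1 cell in a library. For chemoattractant receptors, Cxcr2 and S1pr4 were higher among 15 genes and none was lower, with a median of 1.27, but both were at 0 in library 3. None was called with all 79 cells, with a median of -0.01. C3ar1 and C5ar1, the receptors for complement fragments, were at 346 and 275 CPM. In a list of 17 inhibitory receptor genes and their relatives, Cd200r3, Cd200r4, Lilr4b and Lilrb4a were higher, the first by the rule, and none was lower, with a median of 0.23, the call of Cd200r4 resting on 1 cell in library 2. Taking all 79 cells, none but the rule gene Cd200r3 was called, with a median of 0.06. Cd200r3 and Cd200r4 are relatives of the inhibitory receptor gene Cd200r1 that are known to pair with an activating adaptor, while Lilrb4a encodes an inhibitory receptor. Lilr4b was in 47 cells at 2246 CPM. Cd274, which encodes PD-L1, was in 6 cells at 70.7 CPM, against 51.9 CPM in other cells, and was not called. Among 4 Fcγ receptor genes, Fcgr1 and Fcgr4 were lower, with a median of -1.42, none was called with all 79 cells (median -0.71), and Fcgr3 stood at 298 CPM.

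Of the 20 transcription factor genes, Gata2, which the rule used, Cebpa and Ikzf1 were higher and none was lower, with a median of 0.44. In the set of 79 none but Gata2 was called, with a median of -0.10. Cebpa, a granulocyte factor that acts with Gata2 in basophil commitment, was in 16 cells at 243 CPM and was not found in the 19 mast cells compared below, but its call was lost without 1 cell in any of libraries 1, 2 and 4. Cebpb stood at 2583 CPM. Mitf, the mast cell factor, and Cebpe were at 0. Outside the lists, Rgs1, a regulator of G protein signalling, reached 5245 CPM in 43 cells against 155 CPM, and the lincRNA Gm20186 reached 4240 CPM in 37 cells against 47.9 CPM. Sytl3, a vesicle-docking gene, was in 36 cells at 573 CPM. Ctse, the cathepsin E gene, was in 37 cells at 605 CPM against 12.0 CPM, and Cyp4f18, which encodes an enzyme that breaks down leukotriene B4, in 40 cells at 864 CPM against 36.6 CPM. The genes furthest below the other cells were Maged1 and Aebp1, both at 0 against 219 and 306 CPM, and Ly6a, at 94.2 against 970 CPM. Of the UMIs of the other cells, 97.6% lay in cells with markers of another type. Maged1, Aebp1 and Ly6a were found in 22.8%, 16.5% and 38.0% of all 79 cells. In the deeper cells set aside for such markers, the shares were 60%, 43.3% and 70%. How far the low levels follow from setting those cells aside was not tested. Tec, a tyrosine kinase gene, was in 27 tumour basophils at 424 CPM, against 13.2 CPM in other cells.

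Immediate early genes, which many cells switch on within minutes of a stimulus or of tissue digestion, were high. Of 13, 7 were called higher (Fosb, Jund, Egr1, Ier2, Ier3, Dusp1 and Nfkbia), with a median of 2.32. The calls of Jund, Ier2 and Dusp1 rested on 1 cell in a library. For all 79 cells, none was called and the median was 0.50. Ier3 was in all 49 cells at 11989 CPM. Libraries differed in part of the list. Fos was at 7707 and 7168 CPM in libraries 1 and 4 and at 578 and 308 CPM in libraries 2 and 3, so it was above the other cells in the former and below them in the latter. Jun was at 10936 and 13795 CPM in libraries 1 and 4 and at 1976 and 1488 CPM in libraries 2 and 3. Cd69, an early activation marker, followed the same split, with 1562 and 780 CPM against 182 and 205 CPM. Whether handling of the libraries had a part in this was not tested.

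Genes of antigen presentation were low. Of 11 genes for MHC class II and costimulation, 7 were lower than in other cells and 0 were higher, with a median of -2.12. Taking all 79 cells, H2-Aa and Cd74 were lower and the median was -1.53. H2-Aa stood at 62.8 CPM, against 852 CPM, and Cd74, the invariant chain, at 290 CPM (in 21 cells) against 2234 CPM. H2-DMa, H2-DMb1, Cd80, Cd86 and Tnfsf4 were at 0. Since the other cells include macrophages and dendritic cells, the low counts say little of basophils alone. At 1000 UMIs per cell, Cd74 was seen in 21.7% of the tumour basophils, 19.5% of the neutrophils and 33.9% of all other cells, and H2-Aa in 2.17%, 8.79% and 21.8%. The unthinned shares were 42.9%, 30.7% and 59.2% for Cd74 and 14.3%, 15.9% and 43.0% for H2-Aa. Of 10 cell cycle genes, 4 were lower and 0 higher, with a median of -1.87, with Mki67 in 2 cells and Cdk1, Birc5 and Mcm5 at 0. In the set of 79 none was called and the median had the opposite sign, 0.91.

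The level of markers of other cells in the 49 cells was as follows. The summed neutrophil list was at 675 CPM, against 5467 CPM in other cells, with S100a9 in 28 cells and Ly6g, Mmp8, Ltf and Camp at 0. By library it was 521, 882, 565 and 671 CPM, against 2378, 7360, 8978 and 4851 CPM in other cells, so the highest library differed. Of this list Cxcr2 was called higher, in 16 cells at 188 CPM against 34.8 CPM, and S100a8, S100a9, Csf3r and Mmp9 were called lower. The macrophage list summed to 1115 CPM against 4983 CPM, led by Apoe in 22 cells. It had all of its 10 genes with a UMI and was lowest in library 3 at 257 CPM. The fibroblast list was at 864 CPM against 10867 CPM, led by Col3a1 in 33 cells. Its levels of 104, 1763, 616 and 801 CPM in libraries 1 to 4 had the same lowest and highest library as those of other cells, at 1141, 24906, 11436 and 9604 CPM. Epithelial markers were at 799 CPM in library 1 and 0 in libraries 3 and 4. All 5 B cell genes and all 11 mast cell genes were at 0, 4 of the latter by the rule. The eosinophil list summed to 165 CPM against 3.98 CPM in other cells, and by library to 69.4, 60.8, 205 and 282 CPM. Its 21 UMIs were 14 of Alox15, 5 of Ccr3, a chemokine receptor gene that basophils also use, and 2 of Siglecf, while Epx, Prg2, Prg3, Ear1, Ear2, Ear6 and Il5ra were at 0. Of the dendritic cell list 1 UMI was found, of Fscn1. Endothelial genes summed to 110 CPM against 85.5 CPM, led by Pecam1 in 10 cells and with Cdh5 at 0, and erythroid and platelet genes to 212 CPM against 1670 CPM, led by Pf4 in 17 cells. The part of free RNA in these levels was not tested.

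The T cell and innate lymphocyte list was at 691 CPM against 245 CPM in other cells. Cd3e alone gave 67 of its 88 UMIs, in 11 cells. By library Cd3e was at 34.7, 334, 1540 and 541 CPM. Cd3g, Trac and Trbc2, which T cells express with Cd3e, were at 0, and Cd3d held 1 UMI. The mast cells described next had Cd3e at 505 CPM with the same 3 genes at 0, and neutrophils had 5.19 CPM.

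Mast cells were taken by the mirror rule, with a mast cell protease, a UMI of Ms4a2, Cd200r3 or Gata2, and no Mcpt8. There were 49 of them in all and 19 without markers of another type. The 49 tumour basophils were compared with those 19 as pools, because no library had 10 of each, so that 1 pooled value stands on each side. Of 2957 genes tested for being higher, 468 were higher (15.8%), and 697 of 5069 were lower (13.8%). With all 79 cells that met the rule and all 49 mast cells, libraries 2 and 3 entered. Then 81 of 8354 were higher (0.970%) and 89 of 10997 lower (0.809%).

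The protease genes Cma1, Mcpt4, Tpsb2 and Tpsab1 differed by the rule. Beyond these, the basophils lacked Kit, at 585 CPM in 13 of the 19 mast cells, and Tph1, the serotonin-making enzyme gene, at 1076 CPM in 14. Mcpt2 and Mcpt1 were also at 0, but their pooled levels of 16781 and 4664 CPM came from just 3 of the mast cells. Cpa3 was at 243 CPM in the basophils and 9726 CPM in the mast cells, Fcer1a at 173 and 2338 CPM, and Il1rl1 at 275 and 1581 CPM. Higher in basophils were Ccl3, Ccl6, Ccl9 and Ccl4, at 79.7, 79.7, 13.3 and 372 CPM in the mast cells, and Acod1, the itaconate-making enzyme gene, at 3541 against 13.3 CPM. Ccl2 and Ccl7 went the other way, at 165 and 70.7 CPM in basophils and 2206 and 4797 CPM in mast cells. Of the 20 cytokine genes, 9 were higher in basophils and 0 were lower. These were Il4, Il13, Il6, Csf1, Il1b, Osm, Lif, Areg and Hgf. With all 79 cells that met the rule and all 49 mast cells 4 were higher, Il4, Il13, Il1b and Osm. Of these, Il4 and Il1b rested on 1 cell. Of the 15 chemokine genes, 5 were higher in either comparison, Ccl3, Ccl4, Ccl6, Ccl9 and Cxcl2. With all 79 and all 49 cells, the call of Cxcl2 rested on 1 cell in library 3, with 455 UMIs, and Cxcl10 was lower. Between the 49 tumour basophils and the 19 mast cells, Il4 stood at 793 against 133 CPM. It was no longer called once the cell with 52 UMIs was left out, when its log2 difference was 1.49 in place of 2.49. The other 8 cytokine genes were still called without the cell that held most of each. At 1000 UMIs per cell Il4 was seen in 23.9% of the basophils and 27.8% of 18 mast cells (42.9% and 36.8% unthinned). Cyp11a1 and Hdc were not called, at 492 and 1063 CPM in the mast cells. Both were called higher with all 79 cells that met the rule and all 49 mast cells.

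**Figure D4:**
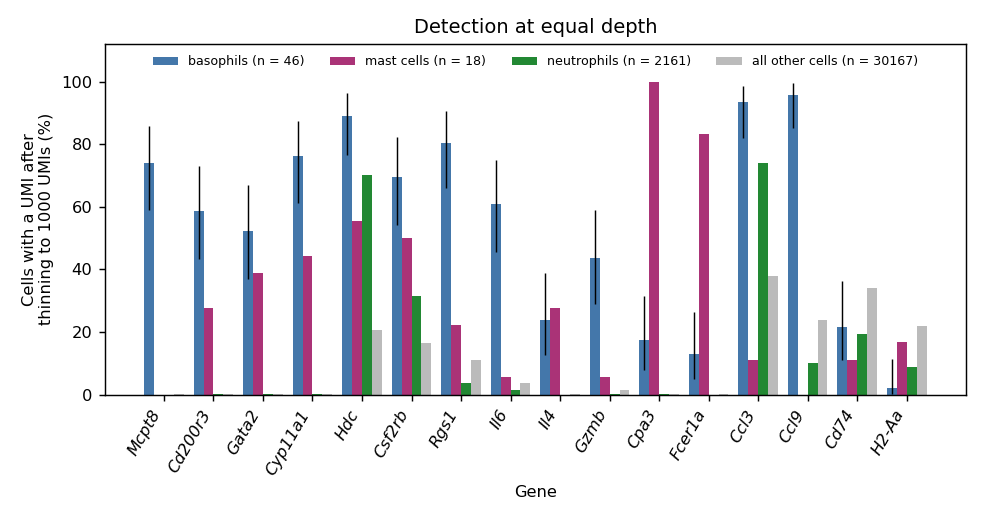
Share of cells (%) with at least 1 UMI after each was thinned to 1000 UMIs, in the 46 basophils, 18 mast cells, 2161 neutrophils and 30167 other cells deep enough. Black lines are exact 95% intervals for the basophils. Cpa3 and Fcer1a are highest in mast cells, while Il6, Gzmb and Ccl9 are highest in basophils.

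Neutrophils, the other granulocytes of these tumours, were taken as cells with Retnlg, S100a8, S100a9 and Csf3r and no Mcpt8. There were 2761, of which 2213 had no markers of another type, and the latter had a median of 1967 UMIs, near that of the basophils. Of 2957 genes, 231 were higher in the tumour basophils (7.81%), and 302 of 2074 were lower (14.6%). With all 79 cells that met the rule, 21 of 8354 were higher (0.251%) and 92 of 4440 lower (2.07%). Higher in basophils, beside the rule genes, were Cyp11a1, Rgs1, Il6, Sytl3 and Gzmb, with Il6 at 10.8 CPM and Gzmb at 2.20 CPM in the neutrophils. Lower were S100a8, S100a9 and Retnlg, which the neutrophil rule used, and Stfa2l1, BC100530, Stfa2, G0s2 and Lrg1, which it did not. G0s2 was at 55.0 CPM in basophils and 7251 CPM in neutrophils. Several genes were abundant in both. Hdc was at 1541 CPM in neutrophils and at 1000 UMIs was seen in 70.2% of them, against 89.1% of basophils (84.5% and 95.9% unthinned). Srgn was at 15038 CPM, Ccl3 at 8313 CPM and Ccl4 at 9625 CPM in neutrophils, and of these Ccl4 was called higher in basophils. Acod1 was seen at 1000 UMIs in 77.7% of neutrophils and 80.4% of basophils (85.3% and 81.6% unthinned). Il1b was at 13994 CPM in neutrophils and Cxcl2 at 46015 CPM, above the 3447 and 15279 CPM of the basophils, but neither was called lower.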

How the data were processed

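Single cells were profiled by 10x Genomics 3′ sequencing. The authors deposited 1 matrix of raw UMI counts for 55450 genes and 33064 barcodes, made with Cell Ranger (version 3.0.2 in the methods, 6.1.2 in the matrix header, 2.1.1 in the submitters' processing notes, which also give mm10), with the 4 libraries joined. Barcodes with under 300 genes or over 15% mitochondrial counts were removed, as in the methods, which left 32133. The methods give a smaller cell number after the same filter, for an analysis of PBS and TIOs+NIR samples that may not cover all 4 libraries. Gene symbols were those of the matrix, and all 55450 identifiers were found in GENCODE vM21 (GRCm38). Counts of 108 symbols shared by several identifiers are uncertain.

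The cells, gene lists and rules were chosen with earlier results of these data known. Since the libraries are not tied to samples, cells count as 1 pooled sample and no p-value was computed. Summed UMIs were scaled to CPM, and folds were taken on log2(CPM + 10), which understates changes of low genes. Genes were called at a mean log2 difference of 2 and at least 1 in every library with 10 or more members. Named genes were drawn from the rule genes, the 25 largest called genes against other cells, the 8 largest each way against mast cells and neutrophils and, from each list, called members, the 4 highest members and those at 0. Not all of these are printed. Other genes named were chosen after their values were seen, and 1 called gene is not reported here. No doublet caller was run. As a stand-in, members with 2 markers (3 UMIs each) of another type were set aside. Thinning drew 1000 UMIs per cell without replacement (seed 1). Promoters came from RefSeq (GRCm38.p6). Python 3.11.15, numpy 2.4.6, scipy 1.17.1 and pandas 2.3.3 were used. On simulated data with 79 members and 200 of 55450 genes changed, all raised and 98.0% of lowered genes were recovered in the comparison with other cells. The simulated members of a library shared the same profile, and changes beyond the call limit were set in well-expressed genes. The recovery therefore does not measure how many changes are missed in a mixed set such as the 79. Alternatives were other cell filters, rules, pseudocounts, detection limits, weightings and leaving out each library or a gene's highest cell. Scaling each cell to its own total, leaving out a gene's highest cell and making the gene comparisons without cells that carry other markers were chosen after the data had been seen.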

Additional observations from a re-analysis of the deposited data

How the results depend on the processing

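The share of cells that met the rule was 0.246%. It stayed within its interval with a minimum of 500 genes, a mitochondrial limit of 10%, no cell filter or mast cell proteases allowed. It was 0.229% to 0.264% when each library was left out. It was 0.187% with at least 2 Mcpt8 UMIs, 0.165% with 2 of the 3 other rule genes, 0.132% at 1000 UMIs per cell and 0.152% without the cells that carry markers of another type.

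Counts of called genes moved with most settings. Higher and lower genes against other cells numbered 55 and 187 with a pseudocount of 1 CPM, 5 and 5 with 50 CPM, 31 and 121 with at least 2 Mcpt8 UMIs, 52 and 86 in the pool, and 20 to 57 and 33 to 121 when a library was left out. Without library 1 they were 41 and 121, without library 2 20 and 63, and without library 3 57 and 33. Against mast cells they numbered 257 and 678, and 25 and 23, at those pseudocounts, with 239 lower with at least 2 Mcpt8 UMIs, 163 lower in the pool, and 80 to 155 and 89 to 254 when a library was left out, the highest without library 3. Against neutrophils they numbered 68 and 181, and 5 and 31, with 58 and 145 in the pool, and 21 to 50 and 80 to 145 when a library was left out. Without library 1 they were 46 and 145, and without library 3 50 were higher. Alternatives added after seeing the data gave, without cells that carry markers of another type, 249 and 820 against other cells, 468 and 697 against mast cells and 231 and 302 against neutrophils. With each cell scaled to its own total they gave 91 and 118, 235 and 256, and 136 and 217. In the set of 79, the cell with the most UMIs of a gene was also left out of any 1 library. Genes still called higher then numbered 9 against other cells, 39 against mast cells and 12 against neutrophils. All 20 genes higher in the 79 cells than in other cells remained at a pseudocount of 1 CPM. They also remained without cells that carry other markers and with each cell scaled to its own total. In the pool 17 of them remained. Of 14 gene shares, 13 moved beyond their interval when cells were thinned. Values near 23.6 CPM in the 49 cells rest on 3 UMIs. Samples were not paired, because no groups of samples were compared and the libraries carry no replicate number. The comparisons were paired by library, since basophils and compared cells of the same library were set against each other except in the pools.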

Other observations

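Mcpt8 was also counted in cells that are not basophils. In library 1, 4239 cells with tumour epithelial markers had a median of 19031 UMIs, and 258 of them (6.09%, 5.39 to 6.85%) held an Mcpt8 UMI, 419 UMIs in all. Hdc was found in 6.25% of them (441 UMIs), Cyp11a1 in 0.307% (14 UMIs) and Cd200r3 in 0.165% (7 UMIs). Within the 11 tumour basophils of that library the counts were 109 UMIs of Mcpt8, 105 of Hdc, 65 of Cyp11a1 and 33 of Cd200r3. In library 1, Hdc counts were close to those of Mcpt8 in both groups. There, Cyp11a1 and Cd200r3 were lower relative to Mcpt8 in the cells with epithelial markers. In library 2, 9 of 320 such cells (2.81%) held Mcpt8 (9 UMIs), while 28.4% held Hdc (180 UMIs). The tumour basophils of library 2 held 99 UMIs of Mcpt8 and 118 of Hdc. The source of these counts was not tested. The protocols gave a sort for CD45, and cells with tumour epithelial markers were present all the same.

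Co-detection of other products in the 49 basophils was as follows. Hgf and Il6 were both in 21 cells, Osm and Il6 in 28, and Gzmb and Il4 in 10 of the 23 Gzmb-positive and 21 Il4-positive cells.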
